A study of Mus musculus with 12 samples.

Results

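The mRNA on rod ribosomes was compared with the total mRNA of the whole retina in control mice. The comparison holds 6 of the 12 libraries of the series, 3 of control rods and 3 of control retina, chosen by the fraction and genotype that their labels name. The other 6 libraries are the same fractions of Pkm2-Rodko mice. Every mouse of the series was homozygous for the RiboTag allele and carried the i75-Rod-Cre transgene, so the controls are not Cre-free. The control genotype was RiboTag; Pkm2 fl/+; i75-Rod-Cre, written Pkm2_Rodhet in the labels and WT in the methods. Its rods have 1 floxed Pkm2 allele, a target of Cre, next to 1 wild-type allele, and the methods call these mice heterozygous for Pkm2. Control rods are therefore not rods with intact Pkm2. Pkm2-Rodko mice had both alleles floxed. Sources differ on how old the mice were, at 2 months in the methods and 2 weeks in the deposited design. Mice were perfused with cycloheximide, which holds ribosomes on their mRNA, and the tissue was flash-frozen before the ribosomes were isolated. The libraries were made from polyA RNA. No pulldown from mice without Cre, and none with an unspecific antibody, was analysed here, so background binding of RNA to the beads has no measured level of its own. The labels number the replicates but do not say whether a library came from 1 mouse or several. P-values therefore measure the spread between libraries, estimated within groups over all 12 of the series.

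In RiboTag mice, Cre recombinase exchanges the last exon of Rpl22, a protein of the large ribosomal subunit, for a copy that carries an HA epitope. An antibody to HA then pulls down the tagged ribosomes together with the mRNA they hold, and this bound mRNA is called the translatome of the cell type that expressed Cre. A rod promoter directs Cre to rods, the photoreceptors for dim light, which are by far the most common cells of the mouse retina. Rods keep stacks of membrane discs in their outer segments, renew them throughout life, and are known for a high rate of aerobic glycolysis. Because rods already make up most of the retina, a rod gene can exceed its level in whole retina by only a limited factor. That limit does not apply to the fall of a gene of another cell type. How far background RNA on the beads limits such a fall was not measured. In these bulk libraries, a gene that rods do not express and one whose mRNA is on few ribosomes cannot be told apart, nor can fewer cells of a type in the retina and less RNA per cell.

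The table held 56748 genes. Recovered reads per library summed to between 13.5 M and 22.8 M in control rods and between 16.7 M and 20.3 M in control retina, and at least 10 reads in every library were found for 13300 genes in rods and 16670 genes in retina. Since the authors had scaled the fractions apart, all libraries were brought to a common scale with TMM factors, and every level below is in normalised reads on that scale. Differences are log2(normalised reads + 1) in control rods minus control retina, with the standard error (SE) of the limma fit, and a gene was called where the Benjamini-Hochberg adjusted p was under 0.05. Scaled this way, 24369 genes were tested, of which 6027 (24.7%) were higher and 9114 (37.4%) lower in rods. Scaled by total reads instead, 2210 (9.04%) were higher and 12748 (52.2%) lower. The median of all tested genes was -0.38 with TMM and -0.84 with total reads. Some list medians are therefore also given relative to the median of all tested genes.

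Rod genes were mostly higher, and markers of other retinal cells mostly lower, in control rods. The 6 lists of photoreceptor genes other than cone markers held 121 tested genes, of which 108 were higher in control rods (24.7% of all tested genes) and 4 lower (37.4% of all tested genes). The 8 lists of markers of other retinal cell types held 121 genes, of which 0 were higher and 119 lower by limma. With scaling by total reads these counts were 83 higher and 14 lower for the rod lists and 0 higher and 121 lower for the other cell types. Differences had a short upper and a long lower tail: 1598 genes were called higher by at least 2-fold and 47 by at least 4-fold, whereas 7867 were called lower by at least 2-fold and 1947 by at least 8-fold.

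**Figure D1:**
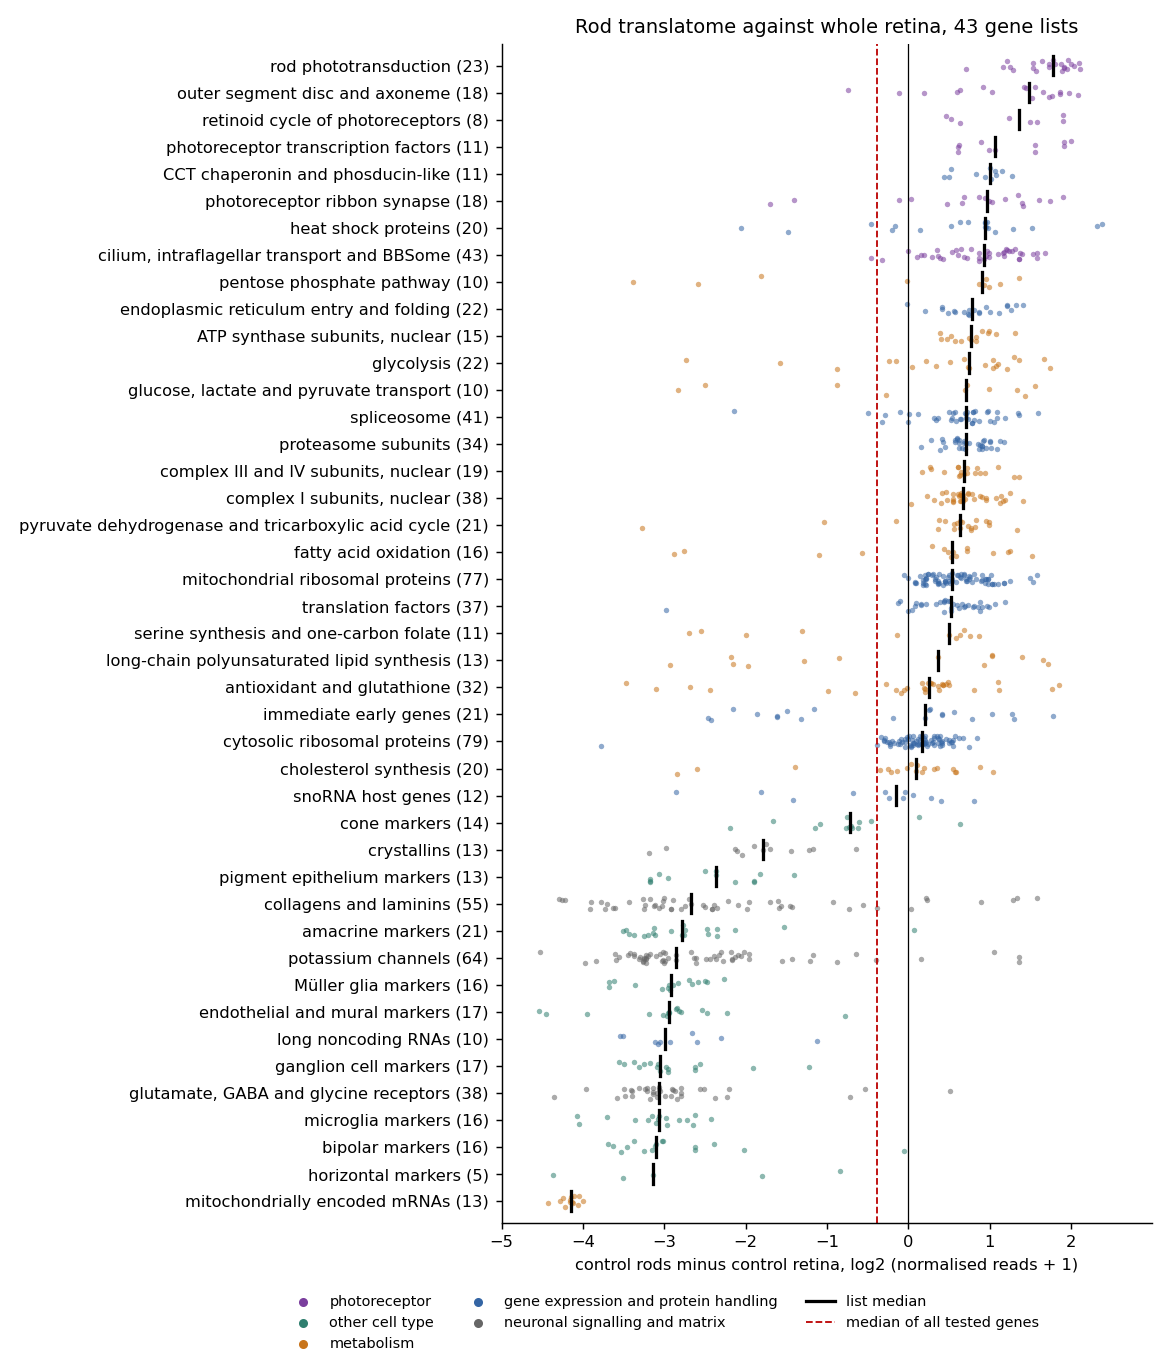
Each point is a tested gene and each row a gene list, with the number of tested members in brackets. The horizontal axis is the log2 difference, control rods minus control retina, in log2(normalised reads + 1), black bars are list medians and the dashed line is the median of all tested genes (-0.38). Rod phototransduction is at the top with a median of 1.78 and mitochondrially encoded mRNAs are at the bottom with -4.15.

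The targeted and tagged genes were examined before the classes. Pkm, which encodes the pyruvate kinases M1 and M2 from 1 gene, had 64409, 62942 and 67987 normalised reads in control rods, replicates 1 to 3, against 25736, 27939 and 25781 in control retina. Each of its rod values exceeded each of its retina values, as was so for 26.5% of all tested genes (38.3% were below in the same way), and the difference was 1.30 ± 0.073 (SE, adjusted p = 8.00e-10). The table has 1 entry for Pkm, so its 2 splice forms were not separated. The paper also lists pseudogenes of Pkm, and their reads cannot be told apart from those of Pkm where the sequences match. In control rods 1 of the 2 Pkm2 alleles was a target of Cre, and its part in these values was not tested. Rpl22, whose protein carries the tag, had 2601, 2414 and 2918 in rods against 1706, 1493 and 1514 in retina. Its difference was 0.75 ± 0.091 (SE, adjusted p = 3.38e-06), and with total reads as the scale it was 0.20 (adjusted p = 0.0565).

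Rods were higher than whole retina in all 23 tested genes of rod phototransduction, the cascade in which light leads to active transducin, transducin activates phosphodiesterase 6 and the fall of cGMP closes the cyclic nucleotide-gated channel. The list median was 1.78, a 3.44-fold difference and 2.16 above the median of all tested genes. These genes took 21.6% ± 0.311 of all reads in rods and 8.03% ± 0.605 in retina (SD, n = 3).

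Members of the cascade differed in size of difference. Gnat1, the alpha subunit of rod transducin, had 531935, 489906 and 544558 normalised reads in control rods, replicates 1 to 3, against 120435, 127696 and 118190.0 in control retina and a difference of 2.10 ± 0.12 (SE, adjusted p = 6.59e-10). Sag, the rod arrestin that helps to end the light response, had 256957, 199234 and 258166 in rods against 60418, 55927 and 57394 in retina, a difference of 2.03 ± 0.12 (SE, adjusted p = 9.32e-10). For Pde6b, the beta subunit of phosphodiesterase 6, the values were 96732, 108467 and 104669 in rods against 25604, 32149 and 24836 in retina and the difference 1.92 ± 0.11 (SE, adjusted p = 9.28e-10). The groups did not overlap for any of these genes. Cnga1, the channel subunit that opens with cGMP, had 34769, 34498 and 31988 in rods against 10182, 11391 and 8131 in retina, a difference of 1.78 ± 0.11 (SE, adjusted p = 1.37e-09). The lowest differences of the list were those of Gucy2f, a guanylate cyclase, at 1.17, and Rgs9bp, the anchor of the protein that ends transducin signalling, at 0.71, and both were still called higher. With total reads as the scale, 22 of the 23 genes remained past the threshold as higher and 0 were lower by limma.

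**Figure D2:**
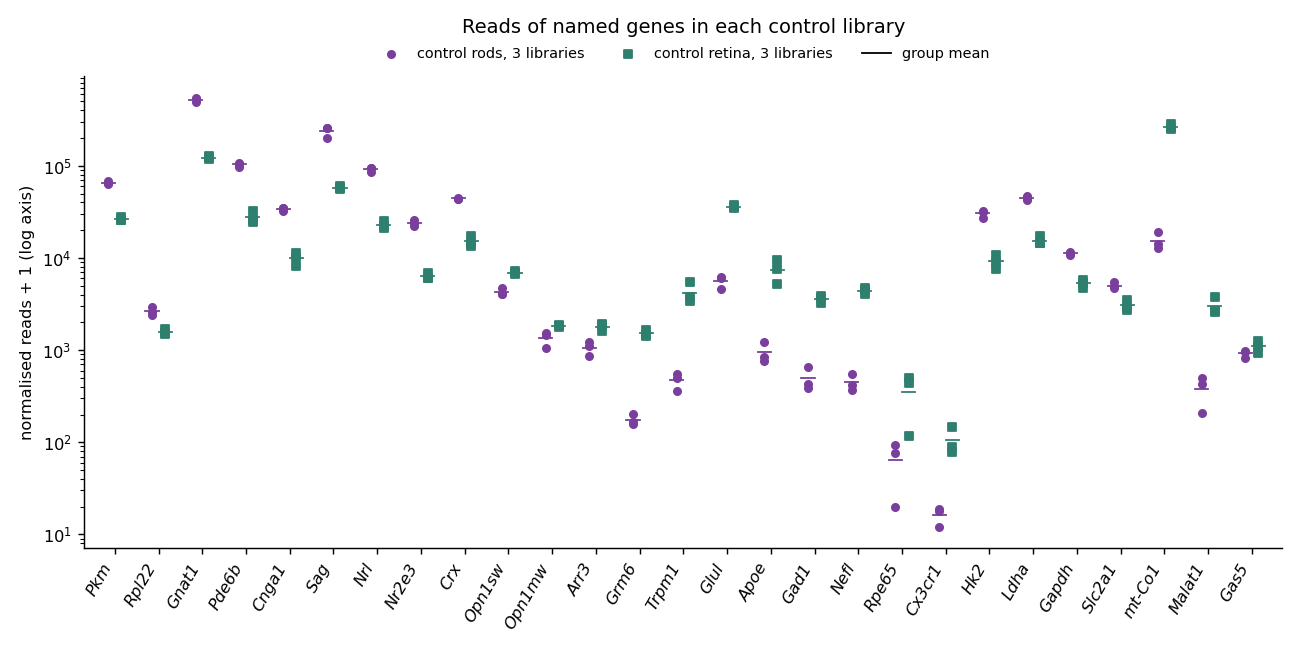
Normalised reads plus 1 (vertical log axis) of genes named in the text in each of the 3 control rod libraries (circles) and 3 control retina libraries (squares), with group means as short lines. Gnat1 and the other rod genes on the left are higher in every rod library, Grm6 to Cx3cr1 in the middle are lower in every rod library, and the retina libraries of Rpe65 spread between 117 and 498.

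Structural genes of the outer segment followed the same direction with exceptions. Of 18 genes for disc and axoneme proteins, 15 were higher, 1 was lower and 2 were not called, around a median of 1.48. Rom1 and Prph2, the paired tetraspanins of the disc rim, had 131769.6, 116348 and 139108 in rods against 30258, 30613 and 29915 in retina and 350369, 315869 and 350583 in rods against 84925, 91411 and 82174 in retina, with differences of 2.09 ± 0.11 and 1.98 ± 0.11. Their rod and retina libraries did not overlap. Rpgrip1, which tethers Rpgr at the connecting cilium, went the other way with 3628, 4072 and 3377 in rods against 5442, 7645 and 5616 in retina, a difference of -0.74 ± 0.17 (SE, adjusted p = 0.0015). Rpgr itself had a difference of -0.12 (adjusted p = 0.644). All 8 genes by which photoreceptors handle retinoids were higher, led by Rbp3, the retinoid carrier of the space around the outer segments, at 1.90 ± 0.11, and Rdh12, a retinal reductase, at 1.90 ± 0.11. In the cilium list of 43 genes, 37 were higher and 1 lower, with Bbs9 and Arl6 of the BBSome pathway highest at 1.68 and 1.58. Iqcb1, the 1 lower gene of that list, was at -0.46 ± 0.15 (SE, adjusted p = 0.0139).

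All 11 transcription factors of photoreceptors were higher in control rods. Nrl, the leucine zipper factor that directs precursors to the rod fate, had 85733, 94726 and 93803 normalised reads in control rods, replicates 1 to 3, against 22054, 25454 and 21383 in control retina and a difference of 1.996 ± 0.098 (SE, adjusted p = 2.30e-10). Nr2e3, its partner that represses cone genes, had 23395, 22383 and 25490.2 in rods against 6049, 6840.1 and 6116 in retina and a difference of 1.91 ± 0.077 (SE, adjusted p = 5.37e-11). Crx, the homeodomain factor that rods share with cones, had 44079.9, 45131 and 44081 in rods against 14643, 17456 and 13621 in retina, a difference of 1.55 ± 0.087 (SE, adjusted p = 7.45e-10). Libraries of the 2 fractions were separate for each of these factors. The lowest differences in the list, those of Prdm1 and Neurod1, were 0.61 and 0.60. The median of the list was 1.07.

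Ribbon synapse genes, which serve the rod terminal, split by protein. Of 18 tested, 14 were higher and 2 lower. Egflam (pikachurin), which joins the rod terminal to the bipolar dendrite, and Cabp4, the calcium sensor of the photoreceptor calcium channel, had differences of 1.90 ± 0.078 and 1.74 ± 0.088. The lower genes were the large scaffolds Bsn and Pclo, which conventional synapses of the inner retina also hold. Bsn had 749, 714 and 827 in rods against 1748, 2047 and 2282 in retina, a difference of -1.40 ± 0.12 (SE, adjusted p = 7.45e-08), and Pclo had 880.1, 983 and 865 in rods against 2361, 3729.7 and 2927 in retina, a difference of -1.70 ± 0.15 (SE, adjusted p = 7.24e-08). For both scaffolds every rod library was below every retina library.

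Promoters were read because these genes moved together. RefSeq promoters on GRCm38.p6, taken as the 250 bases before each annotated start, were searched on both strands for TAATCC, the core bound by homeodomain factors of the Crx type, and TGCTGA, a core of the Maf-type element bound by NRL. These letters do not overlap each other. The table held promoters for 16 of the 23 phototransduction genes, 18 windows in all. TAATCC was in 9 of the 18 (50%), compared with 6.25% of all 32851 promoters in the table and 5.5% of those of tested genes. Among the 17 windows of the transcription factors it was in 4, and among the 41 windows of the cilium list, whose genes were also mostly higher in rods, in 1 (2.44%). Pigment epithelium markers, all lower in rods, had it in 4 of 13 windows (30.8%). The glycolysis list had it in 10.8% of 37 windows and genes called higher in 5.81% of 5407. TGCTGA was in 4 of the 18 phototransduction windows (22.2%) and in 16.1% of all promoters. A match is a run of letters, and binding was not measured. The 5 rod promoters below are shown because they hold the core, and Hk2, a rod-high metabolic gene, because neither run is in its window. Capitals mark both runs and their reverse complements, and each sequence is written 5′ to 3′ along its gene. They lie at chr1:87803430-87803679 on the plus strand (Sag), chr5:72642753-72643002 on the minus strand (Cnga1), chr8:95306586-95306835 on the minus strand (Cngb1, the other subunit of the rod channel), chr14:33953753-33954002 on the plus strand (Rbp3), chr7:15879956-15880205 on the minus strand (Crx) and chr6:82774455-82774704 on the minus strand (Hk2).
Sag: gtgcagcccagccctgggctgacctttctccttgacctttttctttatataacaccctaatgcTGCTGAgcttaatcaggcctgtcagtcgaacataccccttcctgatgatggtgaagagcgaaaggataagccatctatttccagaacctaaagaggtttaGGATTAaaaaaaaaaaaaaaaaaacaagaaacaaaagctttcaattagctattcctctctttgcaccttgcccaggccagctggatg
Cnga1: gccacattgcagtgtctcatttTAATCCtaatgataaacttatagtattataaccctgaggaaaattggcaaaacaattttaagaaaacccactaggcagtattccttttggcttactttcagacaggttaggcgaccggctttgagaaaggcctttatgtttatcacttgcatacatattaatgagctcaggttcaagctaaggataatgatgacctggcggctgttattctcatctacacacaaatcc
Cngb1: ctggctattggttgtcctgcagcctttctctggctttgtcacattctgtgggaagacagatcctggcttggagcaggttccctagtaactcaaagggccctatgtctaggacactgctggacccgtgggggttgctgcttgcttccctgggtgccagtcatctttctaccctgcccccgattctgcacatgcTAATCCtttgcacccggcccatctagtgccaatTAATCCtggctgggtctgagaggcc
Rbp3: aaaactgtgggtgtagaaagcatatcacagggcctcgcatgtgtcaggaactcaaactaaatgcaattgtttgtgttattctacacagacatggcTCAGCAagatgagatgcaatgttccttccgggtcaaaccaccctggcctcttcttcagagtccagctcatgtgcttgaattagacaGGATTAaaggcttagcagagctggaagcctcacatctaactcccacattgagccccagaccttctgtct
Crx: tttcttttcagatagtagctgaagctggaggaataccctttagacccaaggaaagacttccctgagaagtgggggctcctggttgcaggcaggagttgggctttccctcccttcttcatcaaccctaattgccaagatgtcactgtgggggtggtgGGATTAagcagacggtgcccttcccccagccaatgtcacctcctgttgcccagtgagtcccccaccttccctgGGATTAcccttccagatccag
Hk2: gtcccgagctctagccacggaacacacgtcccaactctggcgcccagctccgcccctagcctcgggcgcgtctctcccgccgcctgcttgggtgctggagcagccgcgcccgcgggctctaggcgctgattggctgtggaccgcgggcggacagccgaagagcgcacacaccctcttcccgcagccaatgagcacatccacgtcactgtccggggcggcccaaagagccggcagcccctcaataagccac

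The rod genes set a level against which other genes could be placed. At or above the phototransduction median of 1.78 there were 118 genes called higher, of which 69 were protein coding and 49 of those had a mean of at least 100 normalised reads in rods. By the size of the difference, the largest in this protein-coding set included Hspa1a, Hspa1b, Gm10184, Gnat1, Rom1, Hmgb2, Vtn, Rtbdn and Sag. Vtn encodes vitronectin, an adhesion protein of plasma and matrix, and had 51419, 41003 and 51226 in rods against 11573, 11402 and 11098 in retina, a difference of 2.07 ± 0.092 (SE, adjusted p = 1.06e-10). Rtbdn, a riboflavin-binding protein of photoreceptors, had 31451, 25262 and 31927 in rods against 7265, 6951 and 7222 in retina and a difference of 2.04 ± 0.10 (SE, adjusted p = 2.35e-10). Hmgb2, a chromatin protein, had 2457, 2344 and 2538 in rods against 576, 619 and 531 in retina, a difference of 2.09 ± 0.092 (SE, adjusted p = 1.00e-10). Libraries did not overlap for any of the 3. Gm10184, a predicted gene with no described role, was at 2.10 ± 0.094.

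Other genes at this level, named after their values were seen, came from several roles. Aipl1, the chaperone that assembles phosphodiesterase 6, was at 1.96 ± 0.09, and Fscn2, the retinal fascin that bundles actin, at 1.97 ± 0.12. Drd4, the dopamine receptor of photoreceptors, had 4898, 4440.0 and 4836 in rods against 1278, 1314 and 1277 in retina, a difference of 1.87 ± 0.077 (SE, adjusted p = 5.92e-11). Kpna2, an importin of the nuclear pore pathway, had 14144, 13863 and 12589.8 in rods against 3544, 3998 and 2979 in retina and a difference of 1.96 ± 0.095 (SE, adjusted p = 2.13e-10). The fractions were separate for both genes. Cst3, the secreted protease inhibitor cystatin C, was at 1.81 ± 0.13. The histone genes H2bc8, H2bc4 and H3c15 were at 1.95 ± 0.23, 1.79 ± 0.16 and 1.90 ± 0.16. Histone genes of this kind are near-identical copies, so their separate values are uncertain.

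Cone genes were lower in rods by far less than genes of the inner retina. Of 14 cone markers, 12 were lower and 1 higher, around a median of -0.72, -0.33 relative to the median of all tested genes. Opn1sw, the short-wave cone opsin, had 4049, 4018 and 4768 normalised reads in control rods, replicates 1 to 3, against 6882, 7129.7 and 6724 in control retina. Its rod libraries were below its retina libraries, with a difference of -0.70 ± 0.074 (SE, adjusted p = 7.85e-07). Opn1mw, the middle-wave opsin, had 1452, 1049 and 1528 in rods against 1810.0, 1888 and 1762 in retina and a difference of -0.46 ± 0.11 (SE, adjusted p = 0.00268). Arr3, the cone arrestin, had 1095, 867 and 1228 in rods against 1877, 1601 and 1910.2 in retina and a difference of -0.77 ± 0.13 (SE, adjusted p = 7.41e-05). Thrb, the gene of the thyroid hormone receptor TRβ2 that sets cone opsin identity, was the 1 higher gene, with 2339.7, 2159.7 and 2195 in rods against 1476, 1522 and 1309 in retina and a difference of 0.64 ± 0.09 (SE, adjusted p = 1.64e-05). Reads are per gene, so TRβ2 was not separated from any other product of Thrb. Gnb3, the beta subunit of cone transducin, was at 0.13 (adjusted p = 0.718). The lowest was Ccdc136 at -2.20 ± 0.083 (SE, adjusted p = 3.84e-11). Relative to its retina level, the median cone marker was found at 60.8% in rods, and the range over members was 21.8% to 155%.

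Markers of the other neurons and glia were found in rods at a small fraction of their retina level, and nearly all of them had reads there. The median over the 121 markers of 8 cell types was -2.96, and the median member was at 12.8% of its retina level. Grm6, the glutamate receptor of ON bipolar cells, had 158, 203 and 163 normalised reads in control rods, replicates 1 to 3, against 1459, 1428 and 1657 in control retina. That is a difference of -3.11 ± 0.13 (SE, adjusted p = 5.31e-11). Trpm1, the channel that Grm6 controls, had 361, 502 and 544 in rods against 3747, 3400.0 and 5478 in retina, a difference of -3.15 ± 0.17 (SE, adjusted p = 5.81e-10). Every rod library was below every retina library in both. Of 16 bipolar markers, 15 were lower, with Rgs11 and Vsx1 at -3.63 and -3.69, and Prkca, the kinase used as a rod bipolar marker, was at -0.05 (adjusted p = 0.756) with 4280.4, 5276 and 4461 in rods against 4855, 5597 and 4151 in retina. The fractions overlapped for Prkca.

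Müller glia, which recycle glutamate and buffer water and potassium, were lower in all 16 of their markers. Glul, glutamine synthetase, had 4619, 6140.0 and 6007 normalised reads in control rods, replicates 1 to 3, against 37429.8, 35834 and 34643 in control retina and a difference of -2.70 ± 0.097 (SE, adjusted p = 3.51e-11). Apoe, the lipid carrier made by glia, had 837, 759 and 1237 in rods against 7507, 5189 and 9457 in retina, a difference of -2.96 ± 0.24 (SE, adjusted p = 3.74e-08). The groups did not overlap for either. Aqp4, the water channel of glial endfeet, was the lowest at -3.69 ± 0.14 and Car14, a membrane carbonic anhydrase, the least lower at -2.26 ± 0.13.

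Inner retinal neurons gave like values. Gad1, the enzyme that makes GABA, had 386, 660.2 and 429 normalised reads in control rods, replicates 1 to 3, against 3707, 3893 and 3269 in control retina and a difference of -2.91 ± 0.15 (SE, adjusted p = 3.31e-10). In the amacrine list of 21 genes, 20 were lower, with the cholinergic pair Slc5a7 and Chat at -3.47 and -3.51, while Meis2, a homeodomain factor, was at 0.06 (adjusted p = 0.525). Nefl, the light neurofilament of ganglion cell axons, had 370.4, 549.6 and 419.7 in rods against 4714, 4041 and 4451 in retina and a difference of -3.32 ± 0.17 (SE, adjusted p = 4.35e-10). The ganglion cell list was lower in 17 of 17, from Nefh at -1.22 to Opn4, melanopsin, at -3.55. All 5 horizontal cell genes were lower, with Onecut2 at -4.37 ± 0.35 and Septin4 at -0.84 ± 0.10. Onecut2 was among the 10 largest lower differences of protein-coding genes with a retina mean of at least 100 normalised reads and no overlap.

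Markers of microglia, vessels and pigment epithelium gave the same direction with more spread. Of the microglia markers 16 of 16 were lower, and Cx3cr1, the fractalkine receptor, had 11.1, 17.99 and 16.9 normalised reads in control rods, replicates 1 to 3, against 147, 77.4 and 86.9 in control retina (difference -2.65 ± 0.45 (SE, adjusted p = 0.000107)). Ctss, the protease cathepsin S, was at -4.07 ± 0.40, and P2ry13, a purine receptor, had 0 reads in every rod library against 34.6, 7.83 and 13.3 normalised reads in retina. The 17 endothelial and mural markers were all lower, with Pecam1 at -0.78 ± 0.25 and Cdh5, the cadherin of vessels, with 0, 3.6 and 0 in rods against 33.8, 36.5 and 43.5 in retina. Rpe65, the isomerase of the pigment epithelium, had 93.4, 18.9 and 75.3 normalised reads in control rods, replicates 1 to 3, against 498, 117 and 443 in control retina. Both fractions of replicate 2 were low, and the difference was -2.50 ± 0.58 (SE, adjusted p = 0.00159). The summed level of the 13 pigment epithelium markers ranged from 2302 to 20544 normalised reads in retina and from 425 to 3044 in rods, with replicate 2 lowest and replicate 3 highest in both fractions. Crystallins, abundant in the lens, were uneven too, with summed levels of 516 to 3049 in retina and 46.8 to 418 in rods, and only 2 of 13 were called (lower). The part of adhering epithelium and lens in other results was not tested.

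**Figure D3:**
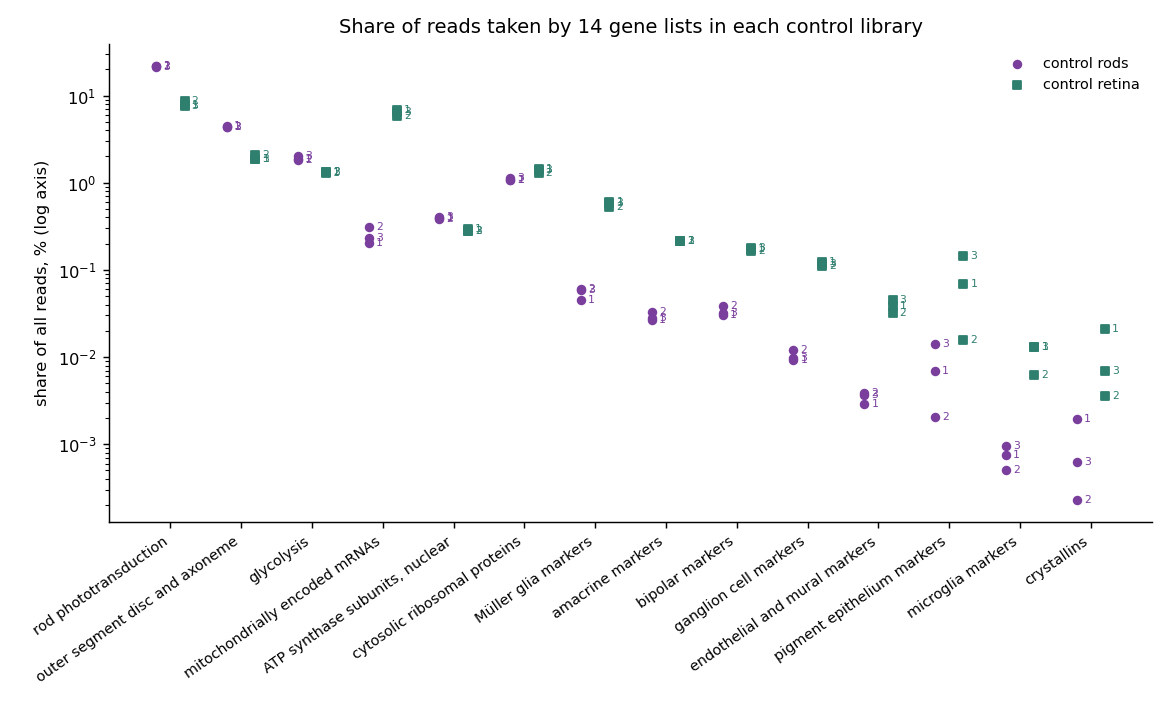
Share of all reads (percent, vertical log axis) taken by 14 gene lists in each control rod library (circles) and control retina library (squares), with replicate numbers beside the points. Rod phototransduction takes 21.6% in rods and 8.03% in retina on average, and pigment epithelium and crystallin lists order the replicates alike in both fractions.

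Markers of the other cells were left in rods at different levels between lists. Summed over its members, the level in rods as a percentage of that in retina was 10.1% for microglia, 13.1% for ganglion cells, 13.2% for vessels, 14.2% for Müller glia, 15.04% for pigment epithelium and 20.04% for amacrine cells. The sums of bipolar (28.4%) and horizontal (37.4%) markers were higher, and hold Prkca and Septin4, which had 95.98% and 56.1% of their retina levels. The amacrine sum holds Meis2 at 105% of its retina level. The median members of the bipolar, horizontal and amacrine lists were at 11.6%, 11.5% and 14.4%. With total reads as the scale every sum was lower, from 6.82% for microglia to 25.5% for horizontal cells. Of the 121 markers, 1 (P2ry13) was without a read in every rod library.

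The mRNAs made inside mitochondria had the lowest list median. They are translated by mitochondrial ribosomes, which do not contain Rpl22. All 13 were lower, with a median of -4.15 and a range from -4.42 (mt-Atp8) to -3.999 (mt-Nd3). mt-Co1, a subunit of cytochrome oxidase, had 12963, 19236 and 14079 normalised reads in control rods, replicates 1 to 3, against 281871, 250316 and 255102 in control retina and a difference of -4.11 ± 0.18 (SE, adjusted p = 7.69e-11). Rods and retina were far apart in every library. Together they took 0.25% ± 0.0565 of reads in rods and 6.39% ± 0.541 in retina (SD, n = 3). Long noncoding RNAs were lower too. All 10 long noncoding RNAs of the list were lower, with Malat1, a nuclear RNA, at 209, 502 and 429 in rods against 2598, 3766 and 2630.2 in retina and a difference of -3.05 ± 0.25 (SE, adjusted p = 4.63e-08). Meg3 and Rian, of 1 imprinted cluster, were at -3.55 ± 0.35 and -3.50 ± 0.13, and Tug1 at -1.12 ± 0.084. Of 12 snoRNA host genes, 1 was higher (Snhg5, 0.81 ± 0.13) and 3 lower, against 24.7% and 37.4% of all tested genes in the same order, and the list median was 0.23 above that of all tested genes. By total reads 0 were higher and 9 lower by limma. Gas5, a spliced host whose short reading frame binds ribosomes, had 829, 959.8 and 976 in rods against 1263, 940.2 and 1079.5 in retina, a difference of -0.24 (adjusted p = 0.0891; two-sided exact permutation test p = 0.3). Without control retina replicate 2 it was -0.34 (adjusted p = 0.0258).

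The remaining large differences downward were spread over protein-coding genes of other roles. With a retina mean of at least 100 and no overlap, the 10 largest were Muc2, Baalc, mt-Atp8, Onecut2, Glra1, Steap3, Col6a1, mt-Nd4l, mt-Nd2 and mt-Cytb. Muc2, a gel-forming mucin, had 3.17, 10.8 and 3.07 normalised reads in control rods, replicates 1 to 3, against 137, 144 and 202 in control retina and a difference of -4.77 ± 0.47 (SE, adjusted p = 3.50e-07). Baalc, a membrane-associated protein of brain, had 6.33, 9.89 and 1.54 in rods against 136, 128 and 119.9 in retina, a difference of -4.45 ± 0.43 (SE, adjusted p = 2.80e-07). Steap3, a ferrireductase, was at -4.31 ± 0.46, and Col6a1, a collagen of basement membranes and vessels, at -4.29 ± 0.42. None of these genes had a rod library that reached its lowest retina library.

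Genes of glucose metabolism were mostly higher in rods on the TMM scale, with some isozymes going opposite ways. Of 22 glycolysis genes, 15 were higher and 4 lower (by total reads 9 and 8), around a median of 0.74, 1.12 above that of all tested genes. The list took 1.9% ± 0.0863 of reads in rods and 1.32% ± 0.0285 in retina. Hk2, the inducible hexokinase, had 27384, 31535 and 32312 normalised reads in control rods, replicates 1 to 3, against 7607, 10834 and 9007 in control retina. Its libraries did not overlap and the difference was 1.74 ± 0.14 (SE, adjusted p = 2.56e-08). Hk1, the constitutive form, was at 1.66 ± 0.11. Gapdh, glyceraldehyde phosphate dehydrogenase, had 11589, 10872 and 11418 in rods against 5379, 5791 and 4715 in retina and a difference of 1.10 ± 0.085 (SE, adjusted p = 2.29e-08). Per length, in TPM (reads per length of the exon union, scaled to the same sum in every library), Hk1 and Hk2 stood at 959 ± 149 and 924 ± 89.7 in rods (SD, n = 3). Pfkl, the liver form of phosphofructokinase, was at 1.36 ± 0.077 and Pfkm, the muscle form, at -1.57 ± 0.089, with 643, 769 and 632 in rods against 2117, 2047 and 1908 in retina for Pfkm. In TPM, Pfkl made up 76.7% of the 3 forms in rods and 44.6% in retina. Eno1 was at 1.08 ± 0.074 and the neuronal Eno2 at -0.23 ± 0.067 (SE, adjusted p = 0.00682), and Pfkfb3, which makes the activator of phosphofructokinase, was lower at -0.88 ± 0.15.

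Carriers were split in the same manner, whereas of the lactate dehydrogenases only Ldha was called. Ldha, the form that favours lactate, had 42919.6, 47263 and 45177 normalised reads in control rods, replicates 1 to 3, against 14503, 17435 and 14364 in control retina and a difference of 1.55 ± 0.087 (SE, adjusted p = 7.54e-10). Ldhb had 2748, 1657 and 2633 in rods against 3084, 2564 and 2716 in retina and a difference of -0.28 (adjusted p = 0.125). Ldha made up 90.2% of the summed TPM of both in rods and 72.5% in retina. Slc2a1 (GLUT1), the glucose transporter of photoreceptors, had 4678, 5438 and 4918 in rods against 2729, 2961 and 3479 in retina and a difference of 0.72 ± 0.10 (SE, adjusted p = 1.73e-05), and with total reads 0.17 (adjusted p = 0.184). Slc2a3 (GLUT3), a neuronal transporter, had 209, 327 and 252 in rods against 1452, 1515 and 1430.0 in retina and a difference of -2.50 ± 0.13 (SE, adjusted p = 3.81e-10). Of the monocarboxylate transporters, Slc16a1 and Slc16a3 were higher at 1.44 ± 0.10 and 1.34 ± 0.14, and Slc16a7 lower at -2.83 ± 0.25. Mpc1, of the mitochondrial pyruvate carrier, was at -0.88 ± 0.16 (SE, adjusted p = 0.000221).

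**Figure D4:**
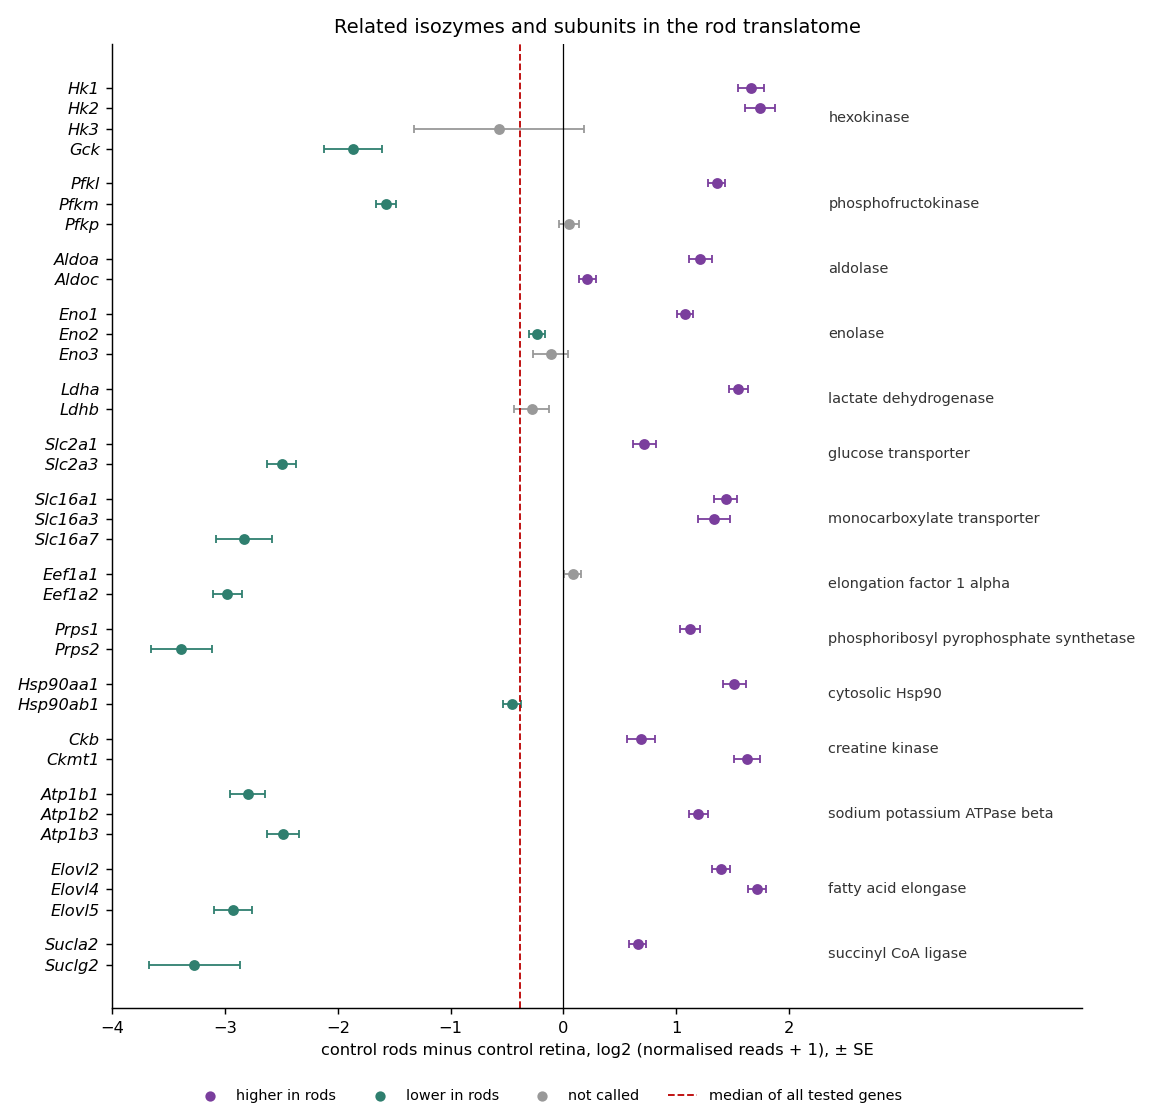
Log2 difference, control rods minus control retina, with its standard error, for related isozymes and subunits grouped by protein family. Purple points were called higher, green lower and grey neither, and the dashed line is the median of all tested genes. Families such as phosphofructokinase (Pfkl 1.36, Pfkm -1.57) hold members on both sides of zero.

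Related genes with unequal differences, chosen for display after their values were seen, were found beyond glycolysis. Atp1b2, a beta subunit of the sodium pump, was at 1.20 ± 0.082, whereas Atp1b1 and Atp1b3 were at -2.80 ± 0.15 and -2.49 ± 0.14. Atp1b2 made up 97.4% of the 3 beta forms in rods and 71.9% in retina, by TPM. For elongation factor 1 alpha, Eef1a1 was at 0.08 (adjusted p = 0.335) and Eef1a2, the form of mature neurons and muscle, had 413, 464 and 423 in rods against 3434, 3334 and 3520.4 in retina, a difference of -2.98 ± 0.13 (SE, adjusted p = 7.86e-11). Ckmt1, the mitochondrial creatine kinase, was at 1.63 ± 0.11 and the cytosolic Ckb at 0.69 ± 0.12.

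Nuclear genes of the respiratory chain were mostly higher while those encoded in mitochondria were lower. Of 72 tested subunits of complexes I, III and IV and ATP synthase, 68 were higher and 0 lower by limma, and by total reads 24 were higher and 3 lower. List medians were 0.67 for complex I, 0.68 for complexes III and IV and 0.77 for ATP synthase. Atp5b, the catalytic subunit of ATP synthase, had 35315, 33643 and 35124 in rods against 14286, 14458 and 13391 in retina, a difference of 1.31 ± 0.07 (SE, adjusted p = 5.12e-10). Each of its rod libraries exceeded each of its retina libraries. Of 21 genes for pyruvate dehydrogenase and the tricarboxylic acid cycle, 18 were higher and 2 lower (by total reads 8 and 3), with Mdh2 highest at 1.34 ± 0.079. Suclg2, the GTP-forming succinyl-CoA ligase subunit, had 15.8, 8.995 and 26.1 in rods against 174, 97.4 and 238 in retina and a difference of -3.27 ± 0.40 (SE, adjusted p = 4.12e-06), while its ATP-forming partner Sucla2 was at 0.66 ± 0.075. Pcx, the pyruvate carboxylase that refills the cycle, was at -1.04 ± 0.11. Fatty acid oxidation had 10 of 16 higher and 4 lower (by total reads 4 and 4), with Acadm and Cpt1a at 1.51 ± 0.12 and 1.24 ± 0.12 against Acadl and Cpt1c at -2.76 ± 0.22 and -2.88 ± 0.16. Its median of 0.54 was 0.92 above that of all tested genes. With total reads the list median became -0.01, and that of all tested genes was -0.84.

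Biosynthetic lists held genes that were higher in rods and genes that were lower. In the pentose phosphate pathway, 6 of 10 were higher and 3 lower: Taldo1 and Prps1 were at 1.36 ± 0.10 and 1.12 ± 0.087, Tkt, H6pd and Prps2 at -1.81 ± 0.075, -2.59 ± 0.28 and -3.39 ± 0.27. Phgdh and Psat1, the enzymes that start serine synthesis from glycolysis, were low in rods. Phgdh had 20.6, 22.5 and 35.4 in rods against 166, 117 and 254 in retina, a difference of -2.70 ± 0.35 (SE, adjusted p = 7.09e-06), and Psat1 was at -2.55 ± 0.15, whereas Psph, the last enzyme of the path, was at 0.87 ± 0.11. Of 13 genes for long-chain polyunsaturated lipids, 7 were higher and 6 lower. Elovl4, which makes very long chain fatty acids, had 25600.1, 25854 and 22794 in rods against 7751, 8087 and 6749 in retina, a difference of 1.72 ± 0.082 (SE, adjusted p = 1.92e-10), and Agpat3, which builds lipids with docosahexaenoic acid, was at 1.66 ± 0.085. Elovl5 and the desaturases Fads1 and Fads2 were at -2.93 ± 0.17, -1.97 ± 0.12 and -1.28 ± 0.24. Cholesterol synthesis had a median of 0.10 (-0.45 with total reads), with 6 of 20 higher, among them Dhcr7 at 1.04 ± 0.10, and 4 lower. With TMM its median was 0.48 above that of all tested genes. The shares over all tested genes were 24.7% higher and 37.4% lower, and by total reads 1 of the list was higher and 14 were lower.

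Antioxidant genes had 15 higher and 6 lower of 32 (by total reads 5 and 16). Over all tested genes 24.7% were higher and 37.4% lower, and by total reads 9.04% and 52.2%. By total reads the list was thus near the share of all genes for lower calls. Nxnl1 and Nxnl2, the thioredoxin-like genes of the rod-derived cone viability factors, had 15181, 13306 and 15162 in rods against 4064, 4281 and 3777 in retina and 3315, 3603 and 3363 in rods against 959, 1173 and 896 in retina, with differences of 1.85 ± 0.074 and 1.77 ± 0.10. Gpx3, the secreted glutathione peroxidase, had 215, 185 and 429 in rods against 2602, 1864 and 4896 in retina and a difference of -3.47 ± 0.35 (SE, adjusted p = 3.83e-07), and Gstm1 and Prdx6 were at -3.10 ± 0.18 and -2.68 ± 0.15. For none of these genes did the fractions overlap.

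Among genes of protein synthesis and handling, chaperones and the proteasome stood above the ribosomal proteins. All 11 tested genes of the CCT chaperonin and its phosducin-like partners were higher, with a median of 1.01 and Cct3 and Cct4 on top at 1.27 ± 0.092 and 1.15 ± 0.068. The chaperonin folds, among others, the beta subunit of transducin. Of 34 proteasome subunits 33 were higher and 0 lower by limma (by total reads 16 and 2). The endoplasmic reticulum list, for entry and folding of membrane proteins, had 20 of 22 higher and 0 lower by limma (by total reads 12 and 2), led by Pdia4 at 1.40 ± 0.071. Translation factors were higher in 28 of 37 and mitochondrial ribosomal proteins in 58 of 77, with medians of 0.52 and 0.53. These medians were 0.90 and 0.92 above that of all tested genes. With total reads they fell to -0.03 and -0.01, where the median of all tested genes was -0.84. On that scale 9 translation factors were higher and 11 lower, and 20 mitochondrial ribosomal proteins were higher and 16 lower. Over all tested genes, 9.04% were higher and 52.2% lower by total reads. The 79 cytosolic ribosomal protein genes centred at 0.16, with 30 higher and 5 lower, and by total reads at -0.39, with 1 higher and 52 lower. With TMM their median was 0.55 above that of all tested genes. Rpl10a was highest at 0.85 ± 0.079. Rps10, the lowest of the list, had 3.17, 0 and 1.54 in rods against 28.1, 29.6 and 29.4 in retina and, like other ribosomal protein genes, has near-identical pseudogene copies, so its value is uncertain.

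Heat shock genes held the 2 largest upward differences among protein-coding genes with a mean of at least 100 normalised reads in rods. Hspa1a, the inducible Hsp70, had 1009.9, 903 and 1027 normalised reads in control rods, replicates 1 to 3, against 166, 157 and 254 in control retina and a difference of 2.38 ± 0.18 (SE, adjusted p = 1.65e-08). Its near-identical neighbour Hspa1b had 1236, 968 and 1221 in rods against 209, 179 and 309.8 in retina and a difference of 2.32 ± 0.18 (SE, adjusted p = 2.51e-08), and reads of the pair cannot be fully told apart. The lowest rod library exceeded the highest retina library in both. Hsp90aa1, the inducible Hsp90, was at 1.52 ± 0.10 and the constitutive Hsp90ab1 at -0.46 ± 0.08 (SE, adjusted p = 0.000144). Hspb1, a small heat shock protein, was lower at -2.06 ± 0.41. Immediate early genes, which neurons switch on within minutes of stimulation, had 7 of 21 higher and 8 lower (by total reads 2 and 9), and over all tested genes 24.7% were higher and 37.4% lower. Atf3 and Ier3 had 530.3, 307 and 503 in rods against 158, 104 and 122 in retina and 1276, 1185 and 1311 in rods against 484, 524 and 518 in retina, with differences of 1.78 ± 0.20 and 1.30 ± 0.097, and Arc and Egr3 were at -2.46 ± 0.70 and -2.43 ± 0.49. In the spliceosome list 32 of 41 were higher, with Sf3b5 at 1.59 ± 0.21, and 3 lower (by total reads 16 and 8), the largest in Snrnp70, a U1 protein, with 497, 563 and 546 in rods against 2193, 2341 and 2609.8 in retina and a difference of -2.15 ± 0.13 (SE, adjusted p = 1.36e-09).

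Genes of synaptic input and ion channels were lower in rods apart from a few members. Of 38 tested receptor subunits for glutamate, GABA and glycine, 36 were lower, with a median of -3.06. Glra1, a glycine receptor subunit, had 6.33, 5.4 and 6.15 in rods against 146, 124 and 156 in retina and a difference of -4.36 ± 0.39 (SE, adjusted p = 1.10e-07). Grin2d, an NMDA receptor subunit, was the 1 higher gene at 0.51 ± 0.17 (SE, adjusted p = 0.0174). Of 64 tested potassium channel genes, 57 were lower and 3 higher. The higher genes included Kcnv2, a subunit of the potassium channel of the photoreceptor inner segment, and Kcnj14. Kcnv2 had 25310.4, 24378 and 22754 normalised reads in control rods, replicates 1 to 3, against 9302, 10563 and 8547 in control retina, a difference of 1.35 ± 0.092 (SE, adjusted p = 5.52e-09). Kcnj14, an inward rectifier, had 24916, 21321 and 25782 in rods against 8807, 9075 and 10036 in retina and a difference of 1.36 ± 0.095 (SE, adjusted p = 7.60e-09). The groups were separate for both, and the summed level of the whole list was higher in rods (111715 to 122137) than in retina (66952 to 72877) although 57 members were lower. Collagens and laminins were lower in 43 of 55 and higher in 4: Col26a1, Col4a3, Col5a3 and Col4a4, at 1.58 ± 0.23, 1.33 ± 0.14, 1.28 ± 0.42 and 0.89 ± 0.22.

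By level per length, rods and retina had different leading genes. The highest TPM values in rods included those of Gnat1, Prph2, Rom1, Gnb1, Rbp3, Pde6g, Rcvrn, Pdc and Ubb. Gnat1 stood at 31219 ± 758 TPM (SD, n = 3) and Prph2 at 20447 ± 613. Of those named, all but Ubb, a ubiquitin gene, are members of the photoreceptor lists. In retina the highest included mt-Co1, mt-Cytb, Gm10925, Gm29216, mt-Co2, Gm28661, mt-Atp6, mt-Nd1 and Gm28437. The Gm genes among them are predicted genes, which are known to include nuclear copies of mitochondrial sequence, so their values are uncertain. mt-Co1 stood at 35450.3 ± 1408 TPM in retina and 1818 ± 453 in rods.

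The same contrast in the Pkm2-Rodko libraries, which share no library with the controls, was set beside these values. It came from the same fit, with a common scale and estimate of spread, over genes filtered on control means. Calls in the 2 contrasts are therefore not fully independent. Of the 6027 genes called higher in control rods, 5982 (99.3%) were also above retina in Pkm2-Rodko rods and 5488 were called higher there, where 25.1% of all tested genes were. Of the 9114 called lower, 8946 (98.2%) were below retina and 7719 called lower, where 36.1% of all tested genes were. The median of phototransduction genes was 1.89 and that of mitochondrially encoded mRNAs -4.60 in the Pkm2-Rodko libraries. List medians had the same sign in 42 of 43 lists, the exception being the immediate early genes (0.20 in controls, -0.21 in Pkm2-Rodko). Tested directly, the difference between the 2 contrasts passed the adjusted threshold in 0 of 24369 genes by limma, and in 1071 at an unadjusted p under 0.05.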

How the data were processed

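Rod ribosome-bound and total retinal mRNA of 6 control libraries were compared, and 6 Pkm2-Rodko libraries entered the fit for its estimate of spread and scale. The authors deposited 1 table of signal, which is reads per Ensembl gene divided by a size factor set for each fraction and rounded to 1 decimal. The submitters' processing notes name GRCm39, CASAVA 1.8.2, HISAT2, DESeq2 and edgeR without roles. The counting tool, annotation and strand setting are not given in the sources used here. Each value is a whole multiple of the value of 1 read (100% of positive values within a tolerance of 0.06), so reads were recovered. All columns were mapped to samples.

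Reads were scaled by TMM over 12 libraries to a common total. In R 4.3.3, log2(normalised reads + 1) was fitted with limma 3.58.1 and its variance trend, using 4 group means, over genes with a mean of at least 1 in a control group, with Benjamini-Hochberg adjustment at 0.05. edgeR 4.0.16 and DESeq2 1.42.0 on recovered reads, other scalings, filters and pseudocounts, a replicate block and leaving out each library were alternatives. Replicate numbers paired the fractions: deviations of same-numbered rod and retina libraries from their group means correlated at 0.24, 0.48 and 0.53 over 11099 genes, and each library correlated best with its own number. Replicates differed by more than sampling noise, with a chi-square per degree of freedom of at least 7.66 between control replicates. On simulated data with 200 changed genes, limma recovered 180 with 6 wrong calls among 23747 genes. Far more genes were called in the control libraries, 6027 higher and 9114 lower of 24369. Recovery and scaling with that many changed genes was not tested.

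GENCODE vM21 gave lengths and gene types, matched by identifier, for 96.6% of tested genes. Promoters came from RefSeq. Python 3.11.15 with pandas 2.3.3, numpy 2.4.6, scipy 1.17.1 and matplotlib 3.10.9 summarised the fits. Named genes were Pkm and Rpl22, the 10 largest protein-coding differences each way with a mean of at least 100 and no overlap, up to 2 members at each end of a list and members called against its median, the 10 highest per length in each fraction, and 26 index genes. Some genes under this rule are not reported here. Other names were chosen after their values were seen. The members and lists were chosen with earlier results of these data known. The 43 lists named 1045 genes present in the table, of which 1030 were tested.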

Additional observations from a re-analysis of the deposited data

How the results depend on the processing

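The precision is limited by 3 libraries per group, and exact permutation of 3 against 3 cannot give a p-value below 0.1. Directions of single genes near zero depend on the scale, since TMM and total reads differ by about the shift of the median gene. The number of genes higher in rods was 6027 with TMM, 2210 with scaling by total reads, 1960 with the authors' values and 1598 with a log2 difference of at least 1. Of the genes higher with TMM, 350 were lower with total reads. Genes lower in rods numbered 9114, and 3811 with at least 10 reads in each control library, which tests fewer genes. Under that filter 1 of the gene types examined, in place of 2, had a median above that of all genes, and the medians relative to all genes turned from above to below for cholesterol synthesis (-0.12), cytosolic ribosomal proteins (-0.051) and snoRNA host genes (-0.27). Without 1 library at a time, 5620 to 5806 genes were higher and 8366 to 8956 lower, and 28 of 43 list medians were above the median of all genes each time. With the replicate number as a block, 6309 genes were higher and 9329 lower, and 14883 of the 15141 calls made without the block were shared. The block changed the call of 0 of the 28 index genes. Over 28 index genes and the alternatives, 438 values kept their side of the threshold, 5 passed it newly (all for Gas5, among them -0.34 without control retina replicate 2) and 4 lost it: Rpl22 at 0.20 and Slc2a1 at 0.17 with total reads, and Rpl22 at 0.15 and Slc2a1 at 0.12 with the authors' values. Medians of the lists relative to all genes moved by less than the spread between replicate pairs in 549 cases and by more in 136. The cause of these changes was not tested.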

Other observations

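Gene types differed in the comparison. Of 16316 tested protein-coding genes, 5174 were higher and 6570 lower in control rods (over genes of every type together, 24.7% were higher and 37.4% lower), with a median of -0.22. Long intergenic noncoding RNAs had 76 higher and 522 lower of 1306, with a median of -1.01, and antisense genes 54 higher and 531 lower of 1252, with a median of -1.10. Processed pseudogenes had 572 higher and 206 lower of 2407 (by total reads 209 and 371) and a median of 0.35, or -0.14 with total reads. They took 1.56% of reads in rods and 1.26% in retina. Reads of a pseudogene cannot be told apart from those of its parent gene where the sequences match.

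Among protein-coding genes the medians of bins ranged more widely by GC content than by the length of the exon union. Over single genes the Spearman correlation with the difference was weak for both, at -0.043 for GC content and -0.053 for length. With genes in 10 equal bins by length the bin medians lay between -0.43, in the shortest genes, and -0.097, and with 10 bins by GC content between -0.041 and -0.77, the latter in the bin with the highest GC, where 45.9% of genes were lower in rods against 37.5% in the bin with the lowest. By length, 32.1% of genes were lower in rods in the bin of the shortest genes and 48.5% in that of the longest. The part of length and GC content in the results was not tested.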
